A study of Homo sapiens with 50 samples.

Results

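The 34 hairpins described here are those, among the 3443 of a pooled screen, whose only named target was an ING gene, a gene whose name starts with MORF4L, or USP22. The rule reads target names and no measured value, but these genes were picked out with earlier results of the screen known. Of the 34, 5 each were directed against ING1, ING2, ING3, ING4, MORF4L1 (also called MRG15) and MORF4L2 (also called MRGX), and 4 against USP22. Among hairpins that named several genes, 0 named one of these 7. All 7 names were current symbols in RefSeq (GRCh38.p14), where ING2 is also listed as an older name of ING3. ING5 was not analysed here.

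The ING (inhibitor of growth) proteins are small chromatin readers. Each carries a PHD finger that binds H3K4me3, the mark of active promoters, and each brings that contact to a larger enzyme complex. ING1 and ING2 belong to SIN3 complexes that remove histone acetylation, ING3 to the NuA4/TIP60 acetyltransferase complex, and ING4 to HBO1 acetyltransferase complexes. ING1 was first described as a growth suppressor. MORF4L1 has a chromodomain that binds methylated H3K36 and is shared by acetylating and deacetylating complexes, and MORF4L2 is its close relative without the chromodomain. Both are named after MORF4, mortality factor on chromosome 4, a locus that came out of work on cellular senescence. USP22 is the enzyme of the SAGA coactivator that removes ubiquitin from histones.

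The cells were IMR90, human lung fibroblasts with a finite number of divisions, kept at 3% oxygen and infected with lentiviruses encoding short hairpin RNAs at a multiplicity of infection of 0.3. The question was which chromatin regulators limit replicative lifespan, since knockdown of such a gene should let the cells that carry the hairpin take over the culture. The 50 samples were genomic DNA from 5 groups of 10 plates, harvested at population doublings (PD) 40, 45, 50, 55 and 60. PD40 was the dividing control and PD60 the senescent culture, every plate carried a mixture of 2 virus pools, and PD40 cells were infected like the rest. All groups are 1 cell line, and how far each hairpin lowered its target was not measured in these data.

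The deposited table held 1 column of tag counts per population doubling, so no value below has a replicate and none measures the spread between plates. Column totals ran from 8270745 to 11505688 tags. Levels are given as tags, or as CPM, the tags scaled to the column total. A hairpin's level is its share of the integrated hairpins, so loss of the cells that carry it and growth of all other cells cannot be told apart. How the plates were combined into a column was not given, so the part of each plate in a level is unknown as well. Counting intervals are exact 95% intervals and cover counting error only. The non-targeting hairpin had 529, 202, 78.9, 11.6 and 4.72 CPM from PD40 to PD60.

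Nearly all of these hairpins were depleted in the senescent culture, as was most of the library. At PD60, 33 of 34 were over 2-fold lower than at PD40 and 0 were over 2-fold higher, on the scale of log2(CPM + 1). Among all 3418 hairpins with at least 10 tags in either column, 95.3% were lower and 2.28% higher. The single exception was the ING4 hairpin TRCN0000131049. The median log2 difference was -6.77 for the 34 hairpins, -5.86 for the library and -6.53 for the non-targeting hairpin. Of the 34, 13 lay above that hairpin and 21 below it. On this scale a hairpin at 0 tags only restates its PD40 level, so a rare one cannot lie far down. Median PD40 levels were 204 CPM for the 34 and 118 CPM for the library, and the non-targeting hairpin had 529 CPM. At PD60 both medians were 0.121 CPM. Neither the medians nor the split are therefore read as stronger depletion. With TMM scaling, which lifts the median of the library by 4.02 to -1.84, 27 of the 34 lay over 2-fold below PD40 and 4 lay over 2-fold above it, where 64.4% and 18.8% of the library did.

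By a linear trend over the 5 columns, 31 of 34 hairpins fell and 0 rose (edgeR's quasi-likelihood test on column totals, Benjamini-Hochberg adjusted p under 0.05 over 3116 hairpins). The same test called 85.9% of the library falling and 0.866% rising, so a falling hairpin was the usual case in the library and nothing particular to these genes is read from the count. At an unadjusted p under 0.05, 0 of the 34 rose. With TMM scaling 13 fell and 2 rose, against 30.0% and 11.4% of the library, and DESeq2's Wald test called 14 falling and 3 rising, against 30.3% and 15.2%. Scatter of the columns around the fitted line is the only error this test knows, and variation between cultures does not enter it.

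The 34 hairpins make up 0.988% of those in the table. Summed, they had 1.49%, 1.58%, 1.15%, 0.551% and 0.110% of tags at the 5 times in order, so their combined share stayed near its start up to PD45 and was lower from PD50 on. It was carried by very few of them: the 3 most abundant hairpins, 1 against ING4 and 2 against ING1, held 8816 of the 9086 tags left at PD60, or 97.0%. At that time 14 of 34 were at 0 tags, where 44.1% of the library was.

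ING1 hairpins split into a pair that first gained in share and 3 that were below their PD40 level at every later time. TRCN0000073271 had 2902, 5591, 6120, 2714 and 381 CPM at the 5 times in order. It thus stood 2.11-fold above its PD40 level at PD50 (counting interval 2.08 to 2.14) and 7.62-fold below it at PD60. TRCN0000073268 had 3047, 4863, 2756, 923 and 91.6 CPM, a peak at PD45 of 1.60 times its PD40 level and an end 33.2-fold below it. These were among the most abundant hairpins of the library, at ranks 35 and 32 of 3443 at PD40 and at ranks 24 and 28 at PD45. At PD60 they stood at ranks 123 and 222, and ranks do not depend on the scaling.

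The other ING1 hairpins started lower, at 273 to 606 CPM, and none of these 3 exceeded its PD40 level at any time sampled. TRCN0000073269 had 2356, 593, 42, 12 and 0 tags, at least 753-fold lower at PD60 with a floor of 3 tags in the PD60 column. TRCN0000073270 and TRCN0000073272 ended at 16 and 5 tags, 313-fold and 649-fold lower than their PD40 levels. In the trend test 4 of 5 ING1 hairpins fell, TRCN0000073268 with an edgeR adjusted p of 0.0332. For TRCN0000073271 the slope was -0.13 ± 0.10 log2 per doubling (SE) with an edgeR adjusted p of 0.246, and with TMM scaling it turned to 0.23 with an adjusted p of 0.0494. Together the ING1 hairpins went through 0.722%, 1.09%, 0.898%, 0.366% and 0.0475% of tags at the 5 times.

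ING2, the closest relative of ING1, also had 1 hairpin that kept its level late and 4 that did not. TRCN0000019214 had 240, 251, 369, 232 and 18.3 CPM, so it was 1.54-fold above PD40 at PD50 (1.45 to 1.63) and 13.1-fold below it at PD60. Its rank climbed from 1001 at PD40 through 706 and 366 to 262 at PD55 before it stood at 425 at PD60. A slope of -0.10 ± 0.10 (SE) had an edgeR adjusted p of 0.333, and with TMM scaling it was 0.24 with an adjusted p of 0.0508. With DESeq2's size factors in edgeR the adjusted p was 0.0269, and with DESeq2's Wald test it was 0.000932, both for a rising slope.

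The remaining ING2 hairpins had 479 to 2491 tags at PD40 and 0 or 1 at PD60. The lowest by log2 difference, TRCN0000019215, had 2491, 1156, 179, 14 and 1 tags (PD60 over PD40 ratio 0.000419, 1.06e-05 to 0.00234). TRCN0000019218 was by ratio the fastest loss among the 34, 20.3-fold lower within the first interval. It had 479 tags at PD40, 24 at PD45 and 0 from PD50 on. On the log2 scale its -3.92 at PD45 was slightly above the -3.95 of ING3 TRCN0000073277. TRCN0000019217 had 498 tags at PD40 and 613 at PD45 and reached 0 only at PD60. All 4 fell in the trend test, with edgeR adjusted p of 2.15e-05 to 0.00451.

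For ING3, the TIP60 subunit, all 5 hairpins were lower at PD45 than at PD40 and lower again at each later time. ING3, MORF4L1 and USP22 were the 3 genes of which no hairpin exceeded its PD40 level at a later time. The hairpins began high, at 335 to 1122 CPM, and ended at 0.363 to 4.23. TRCN0000073273, the most abundant, had 9679, 3489, 301, 82 and 12 tags, 773-fold lower at PD60 (ratio 0.00129, 0.000668 to 0.00226). TRCN0000073276, which was lost least, had 4700, 1993, 862, 367 and 35 tags, 129-fold lower (ratio 0.00777, 0.00540 to 0.0108). The counting intervals of this pair, the lowest and highest of the 5 by log2 difference, do not overlap. They treat tags as independent, which PCR tags are not, so no difference beyond counting error is read from them.

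A pair of ING3 hairpins lost most of their level in the first interval. TRCN0000073277 was 15.8-fold lower at PD45 than at PD40, with 341 tags at PD45 against 5294 at PD40, and TRCN0000073274 was 9.94-fold lower, with 379 at PD45 against 3701 at PD40. The other 3 were 2.00-fold to 2.82-fold lower at that time. The whole of ING3 held 0.0874% of tags at PD45, against 0.304% at PD40, and 0.000858% at PD60. In the trend test 5 of 5 fell, with edgeR adjusted p of 7.04e-05 to 0.00152, and with TMM scaling 1 of 5 did, while the slope of TRCN0000073276 became 0.02 with an adjusted p of 0.808.

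MORF4L1, which shares the TIP60 complex with ING3, was also depleted in every hairpin. Over 2-fold lower were 5 of 5 at PD50, PD55 and PD60, and 4 of 5 at PD45. From PD45 to PD60 the library shares were 63.2%, 81.9%, 91.7% and 95.3%, so nothing particular to MORF4L1 is read from these counts. TRCN0000107583 had 6538, 1967, 167, 29 and 4 tags, 1567-fold lower at PD60 (ratio 0.000638, 0.000174 to 0.00163), the lowest log2 difference of the 34 at -9.00. TRCN0000107584 was 13.8-fold lower after the first interval, with 354 tags at PD45 against 4788 at PD40, and ended at 8. TRCN0000107582, the highest by log2 difference, had 906, 85, 3, 1 and 1 tags. By ratio it was 869-fold lower, against 574-fold for TRCN0000107584, so its place on the log2 scale rests on its lower start and the pseudocount. The summed MORF4L1 level was 1616, 388, 52.6, 10.6 and 1.57 CPM. All 5 fell in the trend test (edgeR adjusted p 4.87e-05 to 0.00214), and 3 of 5 with TMM scaling.

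MORF4L2 hairpins began lower, at 43.5 to 159 CPM, and 5 tags were left of all 5 at PD60. TRCN0000107305 had 1370, 2637, 287, 17 and 0 tags. It stood 1.89-fold above its PD40 level at PD45 (1.77 to 2.02), was already below it at PD50, and was at least 438-fold lower at PD60. TRCN0000107307 was the fastest to go, with 391, 23, 1, 0 and 0 tags. TRCN0000107309, the highest by log2 difference at -5.47, had 375, 110, 11, 1 and 0 tags. At 0 tags that difference only restates its start of 43.5 CPM, the lowest of the 5. The remaining pair, TRCN0000107306 and TRCN0000107308, ended at 1 and 4 tags. As for MORF4L1, 5 of 5 fell in the trend test and 3 of 5 with TMM scaling.

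MORF4 itself is annotated as a pseudogene in RefSeq, and its 5 hairpins lie outside the rule; their values were looked at after those of MORF4L1. TRCN0000015004 had 2883, 4243, 3745, 8201 and 10220 tags, a PD60 over PD40 ratio of 3.70 (3.55 to 3.85), so it stood above its PD40 level at every later time. By edgeR the slope of 0.09 had an adjusted p of 0.195, and it was 0.44 with an adjusted p of 0.00337 under TMM scaling. The other 4 had 128 to 1227 tags at PD40 and 0 or 1 at PD60. Whether a MORF4 hairpin also matches MORF4L1 or MORF4L2 was not tested, as hairpin sequences were not used here.

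ING4, of the HBO1 complexes, had 1 hairpin that stood far apart from its other 4. TRCN0000131049 had 7382, 20250, 14742, 17729 and 4908 tags, or 856, 2306, 1739, 1541 and 593 CPM. It was 2.69-fold above PD40 at PD45 (2.62 to 2.77), 2.03-fold at PD50 and 1.80-fold at PD55, and 1.44-fold below it at PD60 (ratio 0.693, 0.669 to 0.719). In rank it went through 213, 63, 99, 83 and 105 of 3443, so its standing in the library at PD60 was above that at PD40. Its slope of -0.04 ± 0.08 log2 per doubling (SE) had an edgeR adjusted p of 0.654, and with TMM scaling the slope was 0.32 with an adjusted p of 0.00631.

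The other 4 ING4 hairpins were rare from the start, with 217 to 299 tags at PD40, 34 to 81 at PD45, 0 to 8 at PD50 and 0 to 3 at PD60. TRCN0000129127, the lowest by log2 difference, had 260, 43, 3, 0 and 0 tags, at least 83.1-fold lower at PD60. TRCN0000128673 and TRCN0000129334 were also at 0 tags at PD60. They began at 25.2 and 26.5 CPM against 30.1 CPM for TRCN0000129127, so its lowest place only restates its start. All 4 fell in the trend test (edgeR adjusted p 2.21e-05 to 0.000769). At PD60 TRCN0000131049 held 99.9% of the ING4 tags, where at PD40 it held 88.0%, so the sum over the gene was almost wholly that hairpin at PD60 and mostly so at PD40.

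All 4 hairpins against USP22, the histone deubiquitinase of SAGA, were down to 0 to 4 tags at PD60. They began close together, at 137 to 254 CPM, and their log2 differences at PD60, -7.63 to -7.11, were near the floor and so mostly restate those starting levels. At PD45 the log2 differences spread from -2.62 to -0.46. TRCN0000046926, the lowest, had 1696, 274, 71, 33 and 0 tags, at least 542-fold lower at PD60. TRCN0000046927, the highest, had 1179, 871, 155, 10 and 0 tags, at least 377-fold lower. TRCN0000046926 was 6.30-fold lower at PD45. The other 3 were 1.38-fold to 1.70-fold lower at PD45 and 7.13-fold to 8.19-fold lower at PD50, so most of their level was gone by PD50. Summed, USP22 hairpins had 798, 420, 87.3, 12.2 and 0.605 CPM. In the trend test 4 of 4 fell (edgeR adjusted p 0.000185 to 0.000360) and with TMM scaling 0 of 4 did, although all 4 TMM slopes were below 0.

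Ordered by the median of their hairpins at PD60, the genes ran from ING3 (-7.95), ING1 (-7.69) and USP22 (-7.49) through MORF4L1 (-6.68), ING2 (-5.88) and MORF4L2 (-5.86) to ING4 (-4.71). The order depends on how the pseudocount weighs on low levels. TMM multiplies all levels of a column by 1 factor, so without a pseudocount it would leave the order unchanged. With TMM the order ran from USP22 (-3.65), MORF4L1 (-3.55), ING2 (-2.90), MORF4L2 (-2.60) and ING3 (-2.55) to ING4 (-1.93) and ING1 (-1.41). By PD60 over PD40 ratio the middle ING1 hairpin, TRCN0000073270, was at 0.00319 and the middle ING3 hairpin, TRCN0000073277, at 0.00138. The place of ING1 below other genes with column totals is therefore not read as stronger depletion. With column totals neighbours overlapped in the range of their hairpins, except that the highest MORF4L2 hairpin (-5.47) was below the lowest ING4 hairpin (-4.96). Both of these hairpins had 0 tags at PD60, so that gap only restates their PD40 levels of 43.5 and 30.1 CPM. Starting levels differed between the genes as well: 4 of 5 ING4 hairpins lay in the lowest quintile of PD40 abundance, where a hairpin has less far to go before it is at 0 tags, and 4 of 5 ING3 hairpins in the highest.

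The 34 hairpins were therefore set beside library hairpins of the same quintile of PD40 abundance. Of the 34, 15 lay below the median of their own quintile at PD45, 21 at PD50 and 25 at PD55, each beside 50.0% of the library, and 25 at PD60, beside 49.9%, shares that hold by construction. At PD45 these were 4 of 5 for ING3, 3 of 5 for ING1 and MORF4L1, 2 of 5 for ING2 and MORF4L2, 1 of 4 for USP22 and 0 of 5 for ING4. The later counts say little for rare hairpins: in the 2 lowest quintiles, which hold 8 of the 34, 84.5% and 69.8% of the library were at 0 tags at PD60, so the median there is the value of a hairpin at 0. ING3, whose hairpins lie in the 2 highest quintiles, where 19.2% and 1.45% of the library were at 0, had 4, 4, 5 and 5 of 5 below the median from PD45 to PD60, in the end by 0.47 to 2.60 log2 units. USP22 had 1, 2, 3 and 4 of 4 below it, in the end by 0.24 to 0.49 log2 units, with 0 to 4 tags left of each hairpin. Furthest above their quintile median at PD60 were 4 hairpins. These were TRCN0000131049 of ING4 (5.71 above), TRCN0000019214 of ING2 (3.54), TRCN0000073271 of ING1 (3.31) and TRCN0000073268 of ING1 (1.20). The next was TRCN0000107308 of MORF4L2 (0.76).

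The timing of loss differed among the hairpins. A level under 10% of that at PD40 was first reached at PD45 by 5 of 34, at PD50 by 15, at PD55 by 10 and at PD60 by 2, where the shares of the library were 23.9%, 32.8%, 23.7% and 10.7%. ING1 TRCN0000073271 and ING4 TRCN0000131049 did not reach it by PD60, which holds for 8.89% of the library. Compared with PD40, 21 of 34 were over 2-fold lower at PD45 and 1 was over 2-fold higher (63.2% and 5.73% of the library), 30 were lower and 2 higher at PD50 (81.9% and 4.94%), and 31 were lower and 0 higher at PD55 (91.7% and 2.92%). The highest level came after PD40 for 6 of 34, against 19.6% of the library. Between PD45 and PD50, 30 of 34 were over 2-fold lower and 0 higher (71.4% and 2.22%).

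Between PD50 and PD55, 21 of 26 hairpins with enough tags were over 2-fold lower and 0 higher (80.8% and 1.70%), and between PD55 and PD60 17 of 23 were lower and 0 higher (73.2% and 5.40%). The 4 hairpins named as furthest above their quintile median were all lower again in this last interval. Between PD55 and PD60 ING2 TRCN0000019214 was 12.7-fold lower, ING1 TRCN0000073268 10.1-fold, ING1 TRCN0000073271 7.13-fold and ING4 TRCN0000131049 2.60-fold. At any later time, 2 of 34 (TRCN0000073271 and TRCN0000131049) were over 2-fold above PD40, where 8.59% of the library was.

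Partners of these proteins in the same complexes were measured too. Of 47 tested hairpins against 10 SIN3-HDAC genes, 42 fell and 1 rose in the edgeR trend test; of 30 against 8 other NuA4/TIP60 genes 23 fell and 1 rose; of 23 against 5 HBO1 and MOZ/MORF genes 19 fell and 0 rose; and of 19 against 4 other SAGA genes 16 fell and 1 rose. These shares stand beside the 85.9% and 0.866% of the library. With TMM scaling 13 fell and 2 rose in the first list, 8 and 4 in the second, 7 and 4 in the third and 4 and 3 in the fourth, beside 30.0% and 11.4% of the library. The median log2 differences at PD60 were -6.41, -5.19, -5.70 and -5.54 in the same order, beside -5.86 for the library. In each list 1 hairpin was over 2-fold higher, of 50, 37, 26 and 20, where 2.28% of the library was. Their log2 differences were 6.62 (HDAC2), 2.86 (ACTL6A), 1.99 (MYST2) and 4.92 (TADA3L), and that of HDAC2 was the highest in the library. In the SIN3-HDAC list the gene medians ran from -7.48 for SIN3A, the scaffold of the complex, to -5.05 for SAP30L. Starting levels enter here, as the median PD40 rank was 1081 for SIN3A and 2761 for SAP30L.

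Within NuA4/TIP60 the gene medians ran from -7.12 for EP400, its ATPase, to 0.34 for ACTL6A, an actin-related subunit of several complexes. Of 5 ACTL6A hairpins, 1 was over 2-fold higher and 2 were over 2-fold lower. ING3 and MORF4L1 medians lay toward the EP400 end, at -7.95 and -6.68. Median PD40 ranks ran from 976.5 for EP400 to 3166 for RUVBL1 in that list, and were 403 for ING3 and 1848 for MORF4L1. Starting levels thus enter these medians. For the HBO1 and MOZ/MORF list the range was -6.58 for MYST3 (now KAT6A) to -4.13 for MYST2 (now KAT7), the catalytic subunit of the HBO1 complexes, with 1 of 7 MYST2 hairpins over 2-fold higher. In SAGA it was -5.70 for KAT2B to -3.67 for KAT2A, both acetyltransferases. The USP22 median of -7.49 was below each of the 4 partner medians, but starting levels differed. The median PD40 rank was 1152.5 for USP22 and 457 for KAT2A. It was 2170 for KAT2B, 2755 for TADA2L (now TADA2A) and 1975 for TADA3L (now TADA3). A rarer hairpin has less far to go before 0 tags, so the place of USP22 below the rarer genes is not read as stronger depletion.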

How the data were processed

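Tags were sequenced from genomic DNA of 50 samples, 10 plates at each of 5 population doublings. Per the labels' protocols, DNA was amplified around the hairpin and digested with XhoI. Per the submitters' processing notes the tools included Bowtie 1.0.1. Alignment settings and the way plates became 1 column were not given in the sources used. The deposited values are counts of tags per hairpin, per the file headers, and each column was treated as the authors' pooled value.

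The counts were divided by column totals to give CPM. Log2 differences used a pseudocount of 1 CPM and at least 10 tags in either column. Ratios have exact 95% intervals; counts of 0 were set to a floor of 3 tags for bounds. PCR tags without molecular identifiers are not independent molecules. Trends per doubling were fitted to all hairpins with at least 10 tags in at least 2 columns with edgeR 4.0.16 in R 4.3.3 and called at an adjusted p under 0.05, with DESeq2 1.42.0 as an alternative; other steps used Python 3.11.15 and scipy 1.17.1. The trend fit and the ratio interval were tested on simulated data. Quintiles were of PD40 tags over all hairpins.

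The members and lists were chosen with earlier results of these data known. Named hairpins were, per gene, the highest and lowest by log2 difference, those over 2-fold above PD40 at a later time and those among the 100 most abundant of any column; other hairpins were named after their values were seen. Named partner genes were the highest and lowest median of each list, with at least 3 hairpins. Other partner genes were named after their values were seen. Hairpin sequences were not used here.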

Additional observations from a re-analysis of the deposited data

How the results depend on the processing

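No paired analysis was possible because the table gives no value per plate. TMM scaling gave a median of -2.55 for the 34 hairpins and 4 over 2-fold higher, and gene medians of -1.41 (ING1), -2.90 (ING2), -2.55 (ING3), -1.93 (ING4), -3.55 (MORF4L1), -2.60 (MORF4L2) and -3.65 (USP22). By interval it gave -0.78 for PD50 over PD45, against -2.26 with totals, and -0.51 for PD55 over PD50, against -2.00. A pseudocount of 10 gave -3.94 for the 34 hairpins and, in the same gene order, -4.91, -3.14, -5.28, -1.87, -3.51, -3.18 and -4.41, and -0.36 for PD60 over PD55, against -1.73. The order of the gene medians turned with TMM, under which ING1 was highest and USP22 lowest. That turn comes from the pseudocount, since 1 factor per column leaves the order of ratios unchanged. With PD55 as end point the medians were -4.60 for ING1, -6.97 for ING3 and -5.71 for USP22. Scaling without the 50 most abundant hairpins, added after the data were seen, left 1 of 34 over 2-fold higher. Without ING1, also added, 28 of 29 were lower.

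Trend calls among the 34 were 13 falling and 2 rising with TMM, 15 and 3 with DESeq2's size factors, and 14 and 3 with DESeq2's Wald test. For all hairpins they were 935 and 355, 1121 and 422, and 945 and 473, against 2678 and 27 with totals. Leaving out PD45 gave 12 rising and leaving out PD60 gave 45. No median changed sign under any of these settings. With no count minimum, with means in place of medians and without each hairpin of a gene in turn, all 14, 7 and 34 recomputed values stayed within the limits set for them, 1 SD over hairpins for a median and 1.5 times for a count. Apart from that turn in gene order, the causes of the changes were not tested. A hairpin that started at 25.2 CPM could not be followed below the floor of 0.363 CPM at PD60, so losses of ING4 and MORF4L2 hairpins are bounded by depth.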
